A study of Mus musculus with 2 samples.

Results

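The genes described here are those of the Wnt and beta-catenin pathway in mouse cells labelled GT1-7: the Wnt ligands and Porcn, the frizzled receptors with Lrp5 and Lrp6, the Dkk and Sfrp antagonists, the dishevelled genes, the beta-catenin destruction complex, Ctnnb1 itself and the TCF/LEF factors. Members were taken by gene name from the non-control spots of the arrays. The rule found 53 genes of 35017, on 70 of 55681 probes and 72 of 59305 non-control spots. GT1-7 is an immortalised line derived from mouse hypothalamic neurons. The vehicle sample (1 array) had been given DMSO, and the other sample (1 array, called GnRH here) 50 nM gonadotropin-releasing hormone (GnRH), each for 30 min in DMEM. The free-text description of both samples names another agent and the human line A549, whereas their titles, sources and characteristics give GT1-7, and the groups follow those. Each group was a single array of a single line, so no test across cultures was possible and every value below describes these 2 arrays.

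Wnt proteins are secreted, lipid-modified signals that bind a frizzled receptor together with Lrp5 or Lrp6. Without a Wnt signal, a complex of Axin, Apc and the kinases Gsk3a and Gsk3b phosphorylates beta-catenin and marks it for degradation. When a Wnt binds, dishevelled recruits Axin to the membrane, and beta-catenin accumulates and acts with TCF/LEF factors on target genes, among them Axin2. In gonadotrope cells, GnRH is known to stimulate beta-catenin and TCF-dependent transcription, and beta-catenin is a coactivator of the steroidogenic factor encoded by Nr5a1. Much of this signalling acts on protein stability and location, which a transcript array does not measure.

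The array reads each transcript through designed probes of 60 nt. The first 30 bases of the probes are shown for the 3 genes that name the pathway here (Wnt10b, Ctnnb1, Axin2). Those of Tcf7l1 are added because Wnt10b and Tcf7l1 had the largest differences among the measured members. They are printed 5′ to 3′ in lower case, with no letter singled out. Positions are those of the whole probe on mm9, per the file headers. Whether a probe lies in coding sequence or in a UTR was not assigned here.
Wnt10b, chr15:98602209-98602268, minus strand: gggtgggaatggataatttattttactgag
Tcf7l1, chr6:72576377-72576436, minus strand: tggtttttggaacaatttaaactcccagtt
Ctnnb1, chr9:120869274-120869333, plus strand: ttctaagaaccgagtaatggtgtagaacac
Axin2, brighter probe, chr11:108812034-108812093, plus strand: cttggtacaataattattgtaattaagaga
Axin2, other probe, chr11:108803927-108803986, plus strand: tcctgggggaacagattattattgctactc

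On these arrays 55.2% of non-control spots were well above background in the vehicle sample and 56.9% in the GnRH sample, and 0 spots were saturated. The immediate-early genes were far higher in the treated sample: Egr1 was at a signal of 73.5 in vehicle and 24361 in GnRH, and Fos at 114 and 6725. These 2 genes set the treated sample apart from vehicle but do not tell which agent was given. The cell label was less clear. Gnrh1, the hormone gene by which GT1-7 cells are known, lay below that call in both samples (7.94 and 10.3 on its brighter probe). The gonadotrope genes Cga, Nr5a1 and Gnrhr were well above it on both. Of the marker lists, 5 of 6 gonadotrope genes and 2 of 6 GnRH neuron genes were well above background on both arrays. Summed signals are given for vehicle and GnRH within each list, and are not comparable between lists. They were 177061 and 155830 for gonadotropes, and 121 and 102 for GnRH neurons. The count was 3 of 5 for astrocytes (1013 and 921), 4 of 5 for oligodendrocytes (7523 and 6569), 3 of 5 for microglia (6615 and 6095) and 2 of 5 for fibroblasts and endothelium (1533 and 1356). It was 0 of 4 for epithelium (16.7 and 18.6), where Cdh1, Epcam, Krt8 and Krt18 were all below the call. The oligodendrocyte sum was mostly Mbp (5857.5 in vehicle) and the microglia sum mostly Itgam (5000 in vehicle), while Olig1, Cx3cr1 and Ptprc were below the call. The labels give a single line. Whether the listed transcripts came from that line alone was not tested, nor was the bearing of the lists on the Wnt values.

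A gene counts as measured here when a probe for it had at least 50% of its kept spots marked well above background on each of the arrays, and its value is that of its brightest such probe. By this call 36 of the 53 Wnt genes (67.9%) were measured, beside 60.6% of all 35017 named genes and 66.5% of the 21925 with a RefSeq symbol. By role the counts were uneven. All 3 dishevelled genes, all 5 genes of the destruction complex and all 5 of the group of Ctnnb1 and the TCF/LEF factors were measured. So were 9 of 10 frizzled genes and both co-receptor genes. Of the 19 Wnt genes 10 were measured, with Porcn, the acyltransferase that lipidates Wnt proteins, in addition. Of the 8 antagonists 1 was measured, Sfrp5. Above background on 1 array alone were 0 members, where 2.68% of all genes were on the GnRH array and 0.925% on the vehicle array.

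The 17 genes without a usable signal were Wnt2, Wnt2b, Wnt3, Wnt3a, Wnt7a, Wnt7b, Wnt8a, Wnt8b, Wnt9b, Fzd10, Dkk1, Dkk2, Dkk3, Dkk4, Sfrp1, Sfrp2 and Sfrp4. Their signals lay between 3.50 and 11.7 in vehicle and between 2.83 and 12.2 in GnRH. Among them are Wnt3a and Wnt3, ligands widely used to switch on beta-catenin signalling, and the complete set of Dkk genes on the array, whose products bind Lrp5 and Lrp6. Not well above background means that these probes gave no level here, not that the transcripts were missing.

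**Figure D1:**
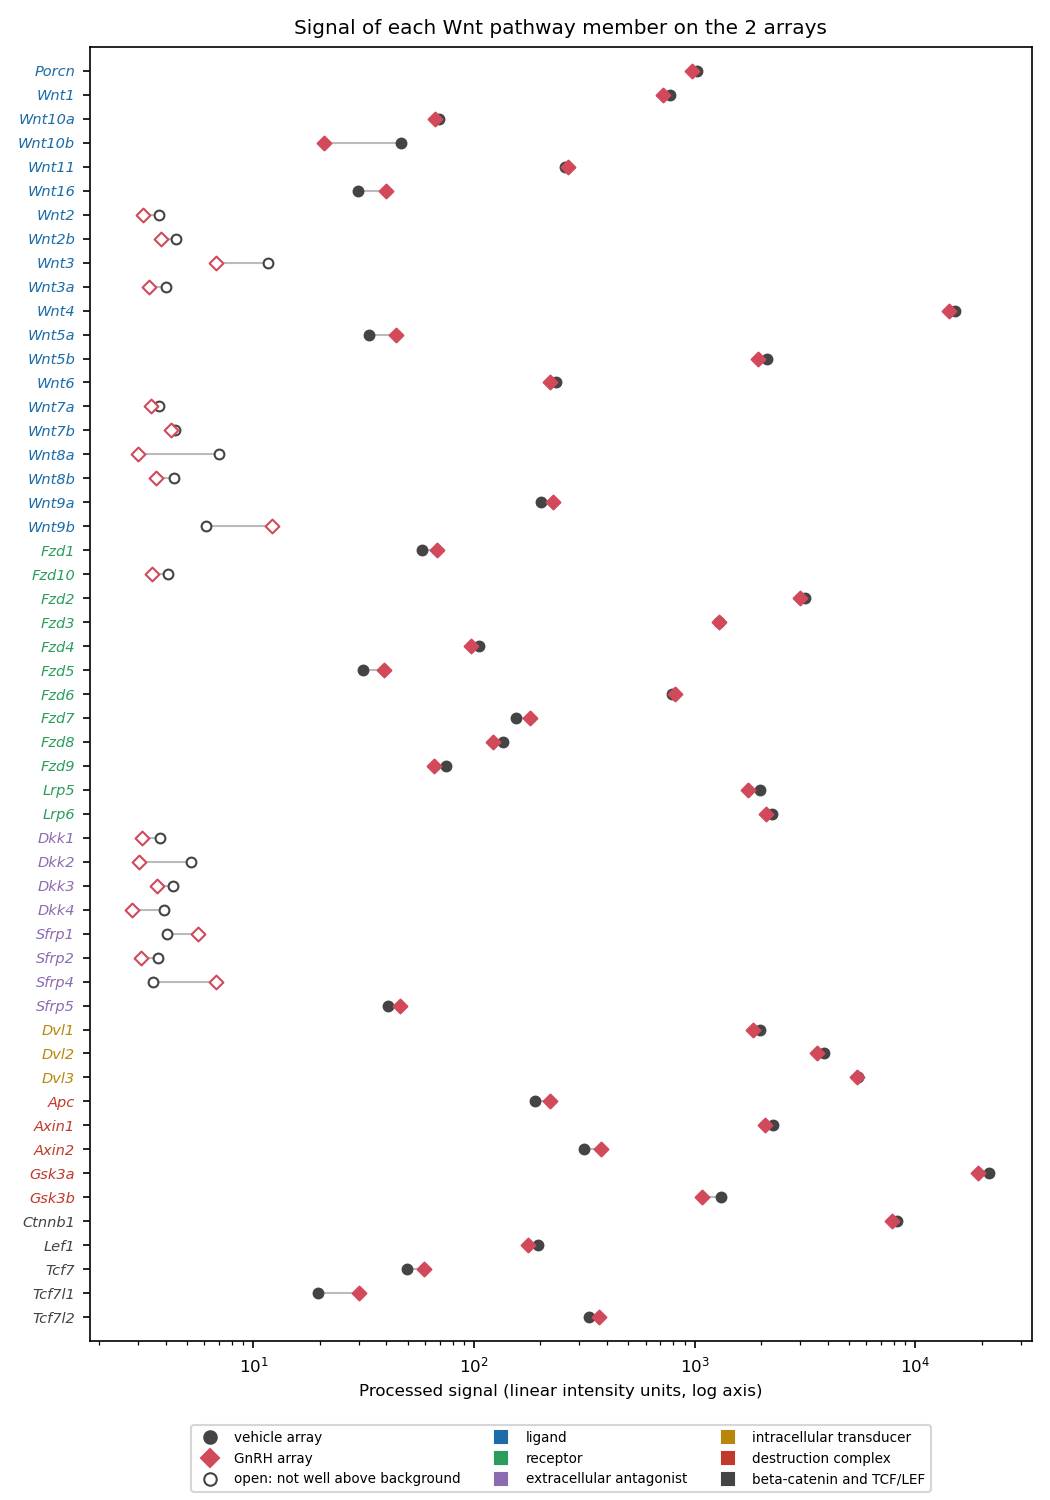
Processed signal of each of the 53 Wnt genes on the vehicle array (circles) and the GnRH array (diamonds), on a log axis in linear intensity units, with gene names coloured by role and open symbols for genes not well above background. Most pairs of symbols lie nearly on top of each other, Wnt10b (46.6 and 20.9) is the measured gene with the widest gap, and the Dkk genes and 3 of 4 Sfrp genes are open; levels of different probes are not comparable.

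The comparison asked which Wnt genes differed in transcript level after 30 min of GnRH. Differences are given on the log2 scale as GnRH minus vehicle, after each array was scaled to its 75th percentile, with the scanner software's error of that difference. That error covers spot measurement on these arrays and not the spread between cultures. For a probe printed in several spots it was reduced as if the spots were independent. The 36 measured members had a median difference of 0.02 (mean 0.10), against -0.01 over all 21219 measured genes. Wnt10b was the single member at least 2-fold lower, where 0.132% of all genes were, and 0 members were at least 2-fold higher, where 0.311% were. At 1.5-fold, 1 member was higher (Tcf7l1) against 1.19% of all genes, and 1 was lower (Wnt10b) against 0.881%. With so few members past either fold, the counts do not set the Wnt genes apart from the array as a whole.

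Of the 36 members 23 lay above 0 and 13 below, and with scaling by the median the split was 17 to 19. The share above 0 was 63.9% against 47.5% of all genes, and 47.2% against 36.9% with scaling by the median. A difference larger than 1 scanner error was seen for 12 members in the upward direction, where 7.34% of all genes passed, and for 1 member in the downward direction, where 6.78% passed. The 12 were Tcf7l1, Wnt16, Wnt5a, Fzd5, Tcf7, Axin2, Fzd1, Apc, Fzd7, Wnt9a, Sfrp5 and Tcf7l2, and the 1 was Wnt10b. Set against the same errors, 5 members were higher with normexp background correction (3.48% of all genes) and 0 lower (1.79%), and likewise 5 (3.36%) and 0 (1.55%) with no background correction. The 5 that passed in each case were Apc, Axin2, Fzd7, Tcf7l2 and Wnt9a. Both settings leave a level in the signals that draws the differences of genes with low signal toward 0, so such genes could hardly pass. Over all alternatives of processing, 24 members kept their sign. The other 12 changed it in at least 1 of them, and apart from Fzd7 these differed by no more than 0.05 in size.

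**Figure D2:**
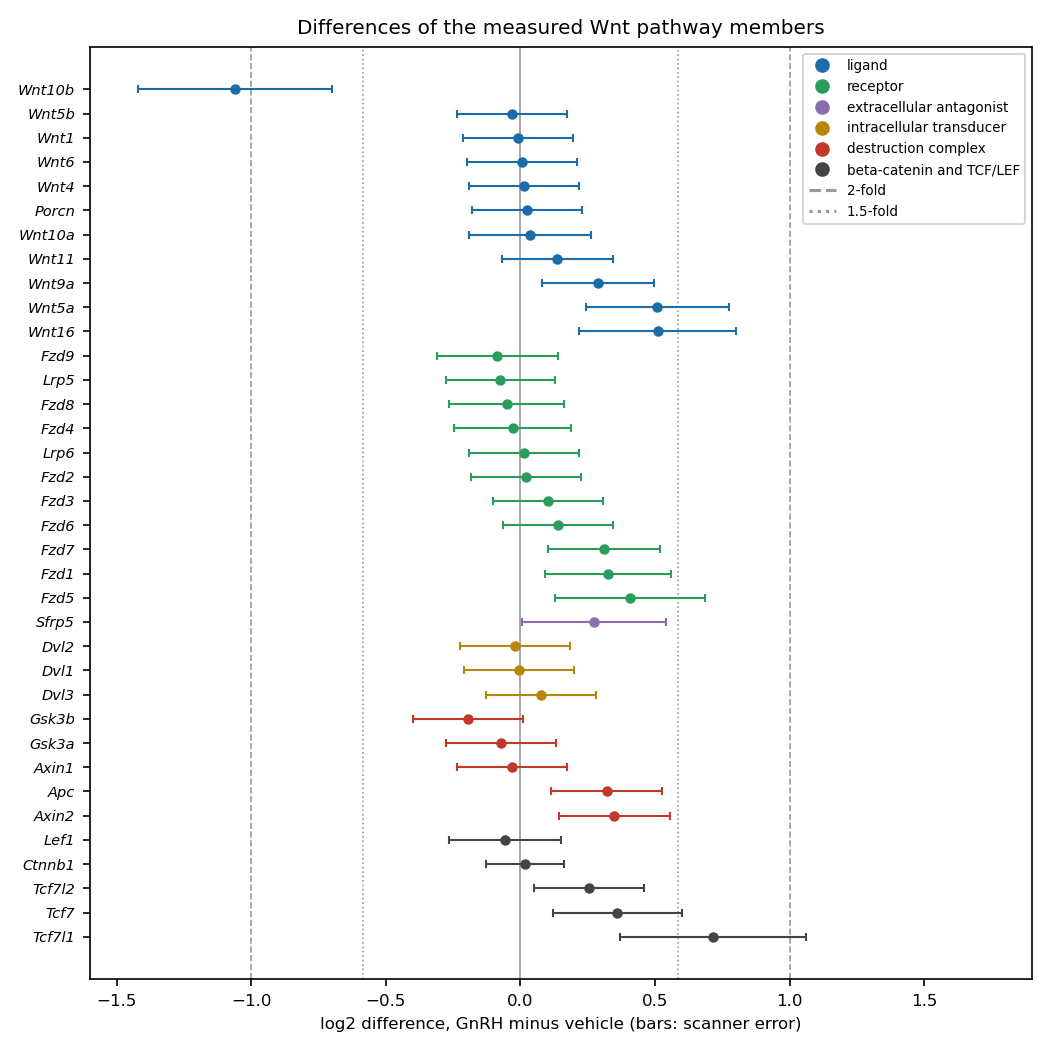
Log2 difference, GnRH minus vehicle, of the 36 measured Wnt genes, grouped and coloured by role, with bars for the scanner error and vertical lines at 1.5-fold and 2-fold. Wnt10b at -1.06 lies beyond the 2-fold line and Tcf7l1 at 0.72 beyond the 1.5-fold line, while the other 34 genes lie between the 1.5-fold lines.

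Among the ligands, Wnt10b differed most. Wnt10b, a ligand that acts through beta-catenin and is known for restraining fat cell formation and promoting bone formation, was at 46.6 in vehicle and 20.9 in GnRH. The difference was -1.06 ± 0.36, or 2.08-fold lower, from 1 spot of 1 probe. Before background subtraction its spot read 109 and 88.8, so most of the signal on both arrays was background. The difference was -0.23 with normexp background correction and -0.20 with none, and Wnt10b then no longer passed 2-fold. The spots around it had a median difference of -0.04, and it lay in none of the 3 areas where neighbouring spots differed together.

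Wnt16 and Wnt5a were the ligands highest above 0. Wnt16, a ligand known for its part in cortical bone strength, was at 29.9 in vehicle and 39.9 in GnRH (0.51 ± 0.29). Wnt5a, the prototype of ligands that signal without beta-catenin, was at 33.3 and 44.4 (0.51 ± 0.27). Normexp correction gave 0.16 for Wnt16 and 0.21 for Wnt5a. Wnt9a, a ligand with roles in joint and liver development, was at 200 and 229 (0.29 ± 0.21).

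The remaining ligands differed by less than their scanner error. Wnt4, a ligand needed for kidney and female gonad development and present in the pituitary, was at 15089 and 14256 (0.01 ± 0.20). Wnt5b, a relative of Wnt5a, was at 2121 and 1944 (-0.03 ± 0.20). Wnt1, the founding member of the family and needed for midbrain formation, was at 769 and 717 (-0.01 ± 0.20). These 3 were well above background with little difference between the samples. Wnt11, which guides cell movements in the embryo, was at 258 and 265 (0.14 ± 0.21). Wnt6 was at 236 and 222 (0.01 ± 0.21) and Wnt10a, the closest relative of Wnt10b, at 69.4 and 66.7 (0.04 ± 0.23). Wnt10a thus did not share the lower value of Wnt10b, although the difference between these genes was not tested. Porcn was at 1023 and 974 (0.02 ± 0.20).

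Among the receptors the median difference was 0.02 over 11 genes, of which 7 lay above 0 and 4 below. Fzd5, a receptor for Wnt5a among others, was highest, at 31.5 in vehicle and 39.1 in GnRH (0.41 ± 0.28). Fzd1 was at 58.0 and 67.9 (0.32 ± 0.23), and Fzd7, a receptor prominent in stem cells, at 155 and 180 (0.31 ± 0.21). These 3 were the receptors that differed by more than their scanner error. For Fzd7 the call rests on 1 of its probes, since the other pointed the opposite way.

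The other frizzled genes lay close to 0. Fzd6 was at 788 and 812 (0.14 ± 0.20), and Fzd3, which with Fzd6 acts in axon guidance and planar polarity, at 1285 and 1291 (0.10 ± 0.20). Fzd2 was at 3157 and 2997 (0.02 ± 0.20). Fzd4, which also responds to the non-Wnt ligand norrin in retinal vessels, was at 105 and 96.5 (-0.03 ± 0.22). Fzd8 was at 135 and 122 (-0.05 ± 0.21), and Fzd9 at 74.3 and 65.6 (-0.09 ± 0.22). None of these 6 differed by more than its scanner error. The co-receptors, which carry the signal to the destruction complex, were at 1968 and 1751 for Lrp5 (-0.07 ± 0.20) and 2234 and 2110 for Lrp6 (0.01 ± 0.20).

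Among the antagonists, Sfrp5, a secreted decoy that binds Wnt proteins, was at 40.8 and 46.1 (0.27 ± 0.27), at the edge of its error. The dishevelled genes, whose products pass the signal from frizzled to Axin, lay within 0.08 of 0 on their brightest probes. Dvl1 was at 1981 and 1847 (-0.01 ± 0.20), Dvl2 at 3862 and 3569 (-0.02 ± 0.20) and Dvl3 at 5499 and 5434 (0.08 ± 0.20).

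Within the destruction complex the kinases and Axin1 lay below 0 and Apc and Axin2 above it. Gsk3a was at 21613 and 19247 (-0.07 ± 0.20), and Gsk3b at 1319 and 1080 (-0.19 ± 0.20), with its other probes at 0.09 and 0.06. Axin1, the scaffold of the complex, was at 2262 and 2073 (-0.03 ± 0.20). These 3 differed by less than their error. Axin2, a scaffold whose gene is itself a widely used read-out of beta-catenin activity, was at 316 and 377 on its brighter probe (0.35 ± 0.21). On its other probe it was at 46.6 and 46.9 (0.11 ± 0.26). Both Axin2 values were above 0, and the difference on the other probe was smaller than its scanner error. Over the processing alternatives the Axin2 difference ran from 0.23 to 0.36. Apc, the tumour suppressor that holds beta-catenin in the complex, was at 190 and 222 (0.32 ± 0.21).

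Ctnnb1, which encodes beta-catenin, was at 8296 and 7863 (0.02 ± 0.14). Its probe was printed in 2 spots, which gave 8278 and 7971 (0.04) and 8314 and 7757 (-0.01). The transcript of the central protein of the pathway was thus nearly level between the samples.

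With Ctnnb1 included, the group of the TCF/LEF genes had a median difference of 0.25 over 5 genes, of which 4 lay above 0. Tcf7l1, the family member that acts mainly as a repressor, was at 19.5 in vehicle and 30.0 in GnRH. The difference was 0.72 ± 0.35, or 1.64-fold higher, from 1 spot. Before background subtraction it read 96.1 and 107.02, and its difference was 0.26 with normexp correction and 0.25 with none. Like Wnt10b, Tcf7l1 was close to the background, and its size depended on how that background was treated. Tcf7, the factor best known from T cells, was at 49.5 and 59.5 (0.36 ± 0.24). Tcf7l2, the factor best known from gut and metabolism, was at 331 and 370 (0.25 ± 0.20). Lef1 was at 195 and 175 (-0.06 ± 0.21) and stood apart from the other TCF/LEF genes in sign.

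The larger differences belonged to dim genes. With a limit of 100 in mean signal, chosen after the values were seen, 10 measured members were dim and 26 were brighter. The 10 had a median difference of 0.34, with 8 above 0 and Wnt10b and Fzd9 below, while all 5011 dim genes had a median of -0.00. Of the 10, 7 were higher by more than 1 scanner error, where 17.5% of all dim genes were. With normexp correction 0 of the 10 were, where 3.49% of dim genes were, and with no correction also 0, where 3.27% were. Both settings leave a level in the signals that draws dim differences toward 0, while the errors stayed the same. Dim genes could thus hardly pass, and these counts do not decide whether the 7 differ. The 26 brighter members had a median of 0.01, against -0.01 over 16208 genes. Among the 5305 dimmest of the measured genes 0.358% were at least 2-fold lower, as Wnt10b was, and 3.15% were at least 1.5-fold higher, as Tcf7l1 was. With normexp correction the median of the 10 was 0.17 and with no correction 0.19. Probes printed 10 times give the spread of a single spot. Of 399 such probes, the 262 with every kept spot well above background on both arrays were used, which leaves out probes nearest the floor. The spread was 0.26 (SD of a log2 difference) for the 27 of these with a vehicle signal under 100, and 0.07 for the 235 brighter ones. Tcf7l1 and Wnt10b had scanner errors of 0.35 and 0.36. The spread between cultures was not measured.

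**Figure D3:**
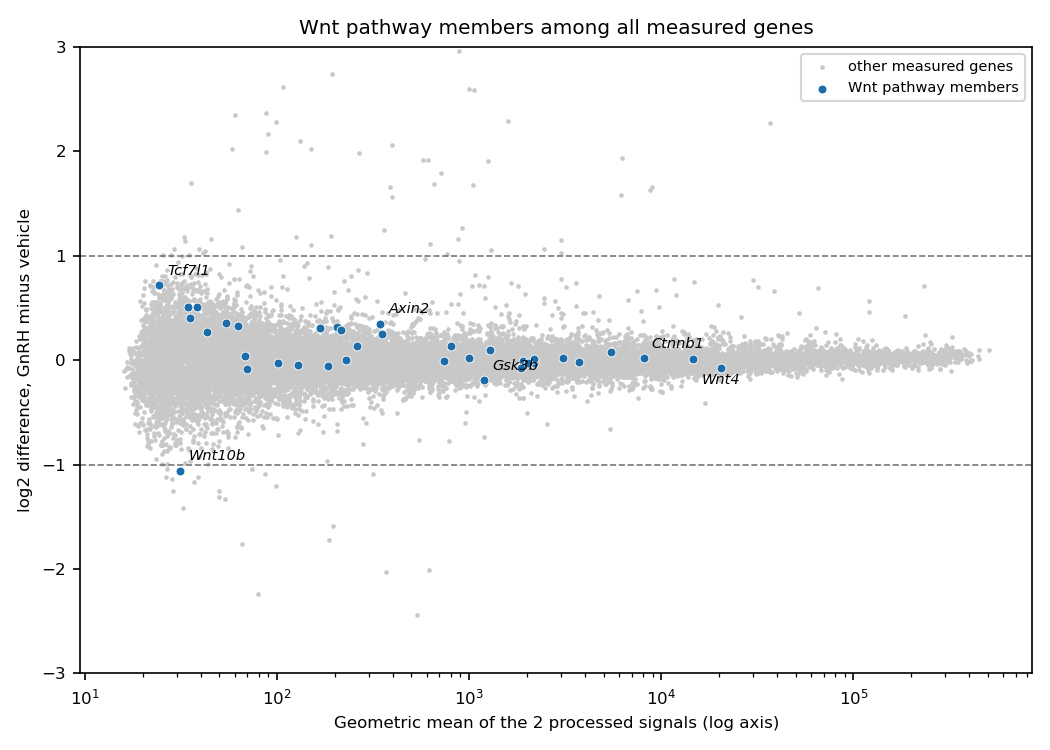
Log2 difference, GnRH minus vehicle, against the geometric mean of the processed signals on a log axis, for 21219 measured genes, with the Wnt genes in blue, dashed lines at 2-fold and 18 genes beyond the vertical axis at 3. Wnt10b and Tcf7l1 sit in the wide scatter at low signal, and Ctnnb1 and Wnt4 in the narrow band at high signal near 0.

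Several probes for a gene show how far a value rests on the chosen sequence. Of the 53 genes 15 had more than 1 probe and 10 had more than 1 measured probe. The median range between probes of a gene was 0.15 on the log2 scale. Fzd5 was at 0.41 ± 0.28 and 0.31 ± 0.29, Wnt4 at 0.01 and 0.04, and Fzd2 at 0.02 and 0.01. Lef1 was below 0 on both probes (-0.06 and -0.17) and Apc above 0 on both (0.32 and 0.15). The 2 spots of the dimmer Apc probe were at -0.24 and 0.53, on opposite sides of 0. In 4 genes the probes differed in sign. These were Fzd7, with the largest range, 0.77; Gsk3b (-0.19, 0.09 and 0.06); Dvl2 (-0.02 and 0.18); and Lrp6 (0.01 and -0.12). With the mean over probes in place of the brightest, Fzd7 was at -0.07.

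**Figure D4:**
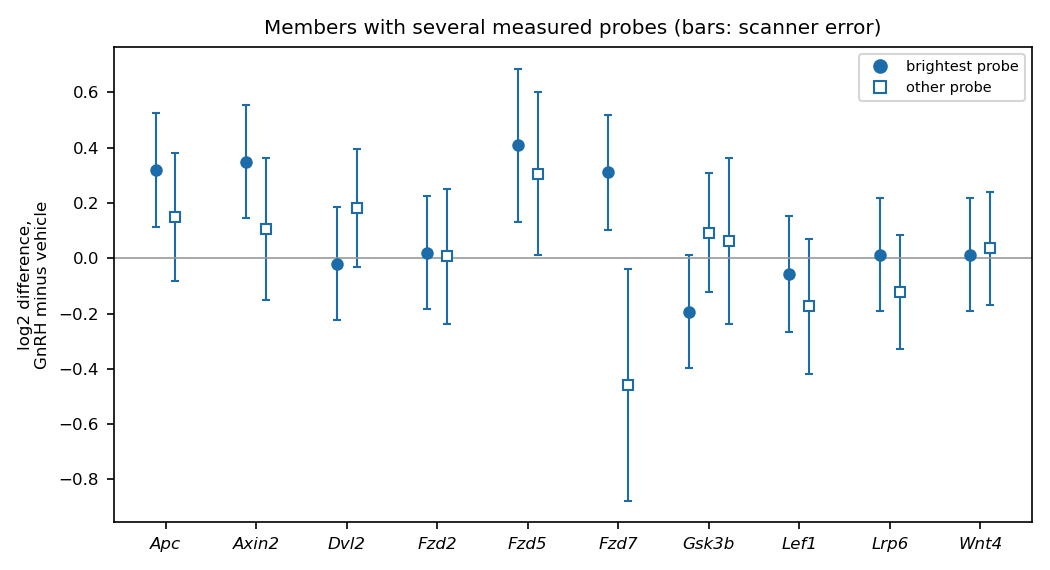
Log2 difference, GnRH minus vehicle, for the 10 Wnt genes with more than 1 measured probe, with filled circles for the brightest probe, open squares for the others and bars for the scanner error. The probes of Fzd7 lie at 0.31 and -0.46 on opposite sides of 0, while those of Axin2, Apc and Fzd5 lie above 0 and those of Lef1 below.

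In 4 further genes, Wnt1, Wnt16, Tcf7 and Tcf7l2, some probes were well above background and others were not on either array. The probe starts of Fzd7, Wnt1 and Tcf7l2 are shown because the reading of these genes depends on which sequence is taken. Positions are those of the whole probe on mm9, and all are on the plus strand.
Fzd7, higher in GnRH, chr1:59541367-59541426: agccccgactttacagtcttcatgatcaag
Fzd7, lower in GnRH, chr1:59543192-59543251: aagggaaggtgaacttcaaagtgattctgg
Wnt1, above background, chr15:98624201-98624260: agtggctcctcgcccccaccaatgtagtat
Wnt1, below the call, chr15:98623276-98623335: tgctgccacgtcagctgccgcaactgcacg
Tcf7l2, above background, chr19:55817272-55817331: agacggcctccgcctcgctccgaaagtttc
Tcf7l2, below the call, chr19:55994029-55994088: caaaatactacgagctggcccggaaggaac
Tcf7l2, below the call, chr19:56006638-56006697: tgttatgtagttcggatagcttagttttaa
The other Fzd7 probe was at 21.4 in vehicle and 14.6 in GnRH (-0.46 ± 0.42), close to the lowest signals called above background. The Wnt1 probe below the call was at 3.93 and 3.31, against 769 and 717 on the probe used. The Tcf7l2 probes below the call were at 14.2 and 15.9, and at 4.06 and 3.41. A gene called measured here may therefore be so through 1 of its probes.

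Some Wnt genes lie next to each other in the genome, and the samples can be read by such pairs. Wnt10b and Wnt1, whose probes lie 21 kb apart on chromosome 15, were both measured, at -1.06 and -0.01. Wnt6 and Wnt10a, 19.1 kb apart on chromosome 1, were both measured and both lay within 0.04 of 0. On chromosome 11, Wnt9a was measured while Wnt3a, 85.3 kb away, was not, and neither of the pair Wnt9b and Wnt3 (90.1 kb) was. Of these 4 pairs, both genes were measured only for Wnt10b with Wnt1 and for Wnt6 with Wnt10a, which is too few for a ranking. The gap between Wnt10b and Wnt1 is the Wnt10b difference already given.

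Beyond the members, a list of 97 other genes of the pathway was described the same way. Of these 74 were measured. Their median difference was 0.02, with 43 above 0 and 31 below (-0.00 with scaling by the median). At 2-fold, 1 was higher, against 0.311% of all genes, and 0 were lower, against 0.132%. The gene past 2-fold was Jun, an AP-1 subunit and immediate-early gene that is also listed as a beta-catenin target, at 3311 in vehicle and 11853 in GnRH (1.93 ± 0.20, 3.82-fold higher). Without the early-response genes Jun, Myc and Fosl1 the list held 0 genes past 2-fold and had a median of 0.02. Of the 74, 8 differed by more than 1 scanner error, 4 higher (7.34% of all genes) and 4 lower (6.78%).

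By role, the known transcriptional targets had the highest median, 0.14 over the 12 measured of 18. Of the 12, 11 lay above 0 (91.7%), where 47.5% of all genes did. Beside Jun, the Notch ligand gene Dll1 was highest, at 512 and 670 (0.48 ± 0.06). The Dll1 error was reduced over several spots of its probe and is not comparable with errors of single spots. Cdx1, a homeobox gene of the gut, was at 21.5 and 24.8 (0.30 ± 0.35). Myc, a growth regulator and classic target, was at 221 and 220 (0.08 ± 0.15), and Ccnd1 was not measured. Of the 12 measured targets 3 were higher by more than their error, where 7.34% of all genes were, the third being Sp5 (0.23 ± 0.21). The beta-catenin turnover genes had a median of 0.01 over 18 of 19, with the Gsk3 inhibitor gene Frat2 highest, at 724 and 808 (0.25 ± 0.20). The nuclear cofactors had a median of -0.01 over 16 of 16, with the Groucho family co-repressor gene Tle4 lowest, at 110 and 83.3 (-0.30 ± 0.22). Its difference was -0.15 with normexp correction and -0.14 with none. The other Tle4 probe, below the call in vehicle, pointed the opposite way, at 17.2 and 22.3 (0.47 ± 0.41).

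In the planar polarity branch, the median was 0.03 over 11 of 12. Its members Celsr1 (23.3 and 27.1, 0.31 ± 0.36) and Prickle2 (96.1 and 66.8, -0.43 ± 0.22) marked its ends. Jup, which encodes the beta-catenin relative plakoglobin, was lowest on the list, at 43.9 and 29.6 (-0.47 ± 0.30), in an adherens junction group with a median of -0.05 over 5 of 6. Among the further antagonists (median -0.04 over 5 of 10) Igfbp4 was at 44.1 and 31.7 (-0.38 ± 0.27) and Apcdd1 at 165 and 135 (-0.20 ± 0.21). With normexp background correction Prickle2 was at -0.19, Jup at -0.15 and Igfbp4 at -0.09. With no correction Prickle2 was at -0.17, Jup at -0.08 and Igfbp4 at -0.09. The R-spondin module, which sets how many frizzled receptors stay at the surface, was measured in 3 of 9 genes with a median of 0.04. The alternative receptors were measured in 3 of 5, with a median of 0.03. Wls, which carries Wnt proteins to the cell surface, was not measured, while Notum, which removes their lipid, was (0.02). Ror1 and Lgr6, named after their values were seen, were above background on the GnRH array alone, as were 2.68% of all genes. Ror1, which encodes a Wnt5a receptor, was at 17.5 in vehicle and 28.3 in GnRH on its brighter probe (0.79 ± 0.44). On its other probe Ror1 was at 17.0 and 21.6 (0.44 ± 0.45), a difference smaller than the scanner error. Lgr6 was at 3.61 and 17.5 (2.37 ± 1.48), while its other probe was below the call in both samples, at 10.8 and 9.37. Set against the lowest signal above background on the vehicle array (16.3), the Lgr6 level in GnRH was 1.15-fold higher. That is not a lower bound, since Rspo3 was below the call in vehicle at 18.4.

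**Figure D5:**
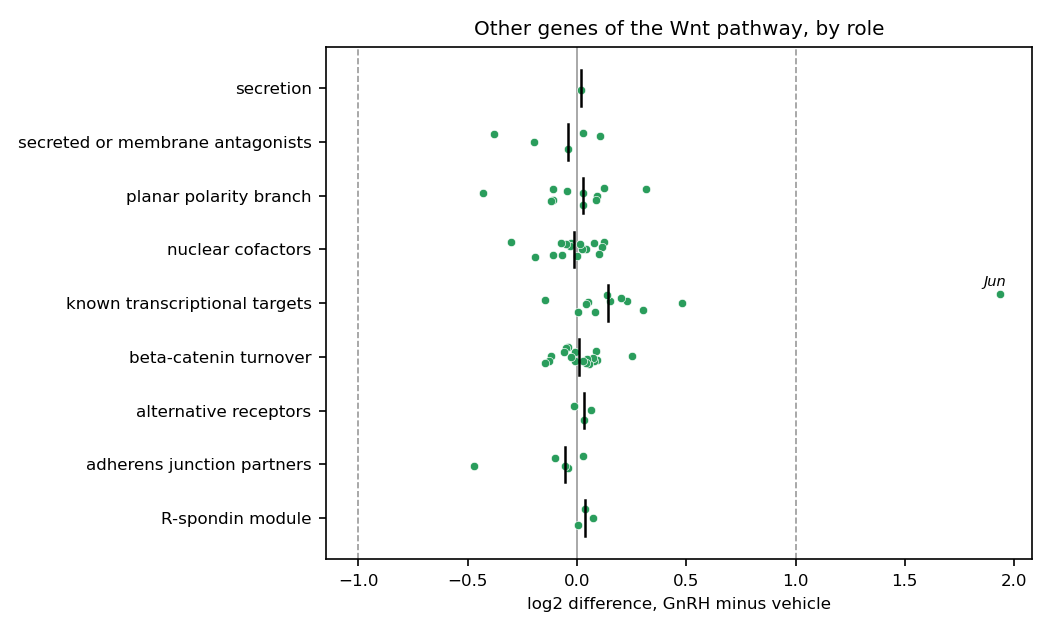
Log2 difference, GnRH minus vehicle, of the 74 measured other genes of the Wnt pathway, by role, with each point a gene, black bars at the group medians and dashed lines at 2-fold. Jun at 1.93 lies alone beyond the 2-fold line, and the group medians run from -0.05 to 0.14.

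Promoter windows from RefSeq (GRCm38.p6; 250 bases before to 50 after the start) were held for 36 of the 53 genes, in 45 windows, and were searched on both strands for 3 motifs. The motifs were CTTTGAT for TCF/LEF, TGACGTCA for the cyclic AMP response element and GCGGGGGCG for EGR factors. The first bears on feedback within the pathway, and the others on factors that act early after GnRH, Egr1 among them. CTTTGAT was in 2 member windows and in 3.73% of all 32851 windows, TGACGTCA in 1 and in 1.79%, and GCGGGGGCG in 6 and in 2.91%. No member gene held more than 1 of the 3 motifs. The matches in measured genes are shown on the gene's strand, with the motif or its reverse complement in capitals.
Wnt5b, TCF/LEF, chr6:119449441-119449467, minus strand: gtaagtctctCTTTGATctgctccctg
Wnt11, TCF/LEF, chr7:98835051-98835077, plus strand: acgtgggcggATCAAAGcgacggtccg
Dvl1, cyclic AMP response element, chr4:155847395-155847422, plus strand: gggcgactagTGACGTCAccggccccga
Fzd4, EGR, chr7:89404324-89404352, plus strand: cgtcccgcccCGCCCCCGCcctgcgaacc
Tcf7, EGR, chr11:52283142-52283170, minus strand: ctggactcggGCGGGGGCGgcgcgggcgc
Tcf7l2, EGR, chr19:55741707-55741735, plus strand: cattgttggcCGCCCCCGCcccgcccacc
The TCF/LEF match began 71 bases before the start in Wnt5b and 51 in Wnt11, genes that differed by -0.03 and 0.14. The EGR match began 32 bases before the start in Fzd4, 146 in Tcf7 and 93 in Tcf7l2, where the differences were -0.03, 0.36 and 0.25. Wnt2, Wnt3a and Wnt7a, which were not measured, also held the EGR motif. The TGACGTCA of Dvl1 lay just after its start, and Dvl1 differed by -0.01. A match describes letters in this window and not a bound site.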

How the data were processed

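Agilent mouse arrays of the 1-colour kind were hybridised with Cy3-labelled cRNA made from total RNA, per the labels' protocols. Per the file headers, the deposited scanner files hold spot intensity values, background-subtracted and detrended within each array by Feature Extraction 10.7.1.1, on build mm9 (9.5.1.1 per the submitters' processing notes). A further table of intensity values deposited by the authors, on a linear scale, had a median of 28.44 in both columns. Its differences correlated at r = 0.998 across 29665 probes with those of the scanner values, which settles scale and direction (how it was normalized is not given in the sources used here).

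Left out were control and outlier spots (121 outlier spots in vehicle, 94 in GnRH). Over a probe's kept spots log2 signals were averaged, and each array's 75th percentile (578 and 541 before the log) was subtracted. Each gene took the value of its brightest probe with at least 50% of spots well above background on both arrays. Names are the file's, or a RefSeq symbol where the accession matched (27235 probes). Errors are the scanner software's, combined over both arrays. Over the spots of a probe they were averaged as if independent, so they shrink with the number of spots. For bright spots they mostly reflect the software's multiplicative setting of 0.1. Whether spots of an array share that part was not tested. Genes were counted at 2-fold and at 1.5-fold. No test was made, since each group had 1 array, and precision is limited by the number of arrays. Connected areas of at least 4 spots where neighbouring spots (within 2 rows and columns) differed by a median of 0.3 or more were marked; 1 member spot, of Wnt9b, and those of Apcdd1 and Notum lay in them.

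The members and lists were chosen with earlier results of these data known. The rule for named genes took every member, of the other pathway genes those past 1.5-fold and the 5 with the largest differences in each direction, Egr1 and Fos for the treatment label, and Gnrh1, Gnrhr, Cga and Nr5a1 for the cell label; other genes were named after their values were seen. Steps were tested on simulated data with planted changes. The simulation gave all spots the same noise level and both sides the same background calls. It thus did not test the wider noise near the background or the background call. Alternatives changed the scaling, background correction (limma normexp, offset 50), source of values, filters, probe rule, background call, areas and threshold. Tools were Python 3.11.15, pandas 2.3.3, numpy 2.4.6, statsmodels 0.14.6, R 4.3.3 and limma 3.58.1.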

Additional observations from a re-analysis of the deposited data

How the results depend on the processing

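The count of Wnt members at least 2-fold lower, 1 as reported, was 0 with normexp background correction, with no background correction, with the stricter filter on dim probes and at 3-fold, and 2 with no filter, where Wnt8a joined below background. The count of members at least 2-fold higher, 0 as reported, was 2 with no filter (Sfrp4 and Wnt9b, neither well above background), 1 with the looser background call and 1 at 1.5-fold. Of the other pathway genes, 1 was higher as reported, 3 with no filter, 2 with the looser call and 0 without Myc, Jun and Fosl1; 0 were lower as reported, and 1 was with no filter and 1 with the looser call. Fewer or more genes enter under the filters and calls by their construction. With the normexp offset, or with no correction, a level stays in both signals and by construction draws dim differences toward 0. Scaling by the median, quantile normalization, lowess, the authors' value table, the mean over probes, kept outlier spots and leaving out the areas left these 4 counts as reported. Counts past 1 scanner error, with alternatives chosen after seeing the data, were 12 members higher and 1 lower as reported, and 5 and 0 with either background correction and with the stricter filter; scaling by the median gave 2 lower, with Gsk3b added. Of the dim members, 7 were higher as reported and 0 with either background correction. Measured members numbered 38 with the looser call, which added Wnt3 and Wnt9b. The members' median ran from -0.01 with scaling by the median to 0.04 with normexp, and their mean was 0.10. The lower count over all genes, 28, was 12 with either background correction or the stricter filter, 14 without the areas, 311 with the looser call and 760 with no filter; the higher count, 66, was 552 with the looser call and 1259 with no filter. Of 422 values of single members under alternatives, 7 shifted beyond the scanner error of their gene. Wnt10b, the single member past 2-fold, kept its sign, while 12 of the 36 measured members changed sign in at least 1 alternative. No paired analysis was possible because each group held 1 array and the labels carry no replicate numbers. Members with signals near the background, with a scanner error of up to 0.36 on the log2 scale, are those for which depth of signal limits a comparison.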
